A study of Caenorhabditis elegans with 6 samples.

Results

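The insulin signalling pathway was followed through 8 genes of Caenorhabditis elegans, daf-2, age-1, daf-18, pdk-1, akt-1, akt-2, sgk-1 and daf-16, chosen by name and matched by symbol to 8 of the 46778 gene identifiers in the count tables. The hormone receptor DAF-2 activates the phosphoinositide 3-kinase AGE-1, whose lipid product recruits the kinases PDK-1, AKT-1 and AKT-2, while the phosphatase DAF-18 removes that lipid. The AKT kinases phosphorylate the forkhead transcription factor DAF-16 and keep it out of the nucleus, and the pathway is known in the worm for its control of dauer entry, lifespan and stress resistance. Much of this control acts on proteins, and the values here are transcript levels.

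RNA was sequenced from whole animals raised from egg to the L4 larval stage, with 2 libraries in each of 3 groups. Wild-type N2 was fed the Escherichia coli strain K12 BW25113. The food has no label of its own, and WT in the sample titles of N2 and UM10 was read as K12 BW25113. UM10, which carries unkIs7, the transgene aex-3p::αsynA53T for human alpha-synuclein A53T under the aex-3 promoter, was fed either K12 BW25113 or csgA(-) bacteria, which lack the curli subunit gene. The series title calls this expression pan-neuronal, so the pathway transcripts come from all tissues while the transgene is aimed at neurons. The labels give UM10 as 1 transgenic strain, and N2 on csgA(-) was not analysed here. The sample titles disagree with the names of the deposited tables on which 2 of the 4 UM10 libraries had which food. The titles were followed. If the table names were right, the values of UM10 on K12 against N2 and of UM10 labelled csgA(-) against N2 would change places, and the food comparison would change sign. The comparison of UM10 over both foods with N2 does not depend on the food labels.

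Each library held 22657727 to 23532382 gene counts, and all 8 pathway genes were among the 15331 genes that passed the filter on low counts. Levels are given as CPM, the count of a gene relative to the library total, after TMM scaling, which corrects library totals for differences in RNA composition. N2 replicate 1 stood apart, with a TMM factor of 0.610 against 1.02 to 1.2 in the other 5 libraries and 9.20% of its counts in its 10 most abundant genes against 5.82% to 7.64%. The replicates of each group differed by more than counting noise. No label says that they were separate cultures, so p-values measure the spread between these libraries, which may be technical. Markers of neurons, intestine, body wall muscle, hypodermis and germline were all detected, none of them at 0 in every library, and in bulk RNA fewer cells of a type and less RNA per cell cannot be told apart. The vitellogenin vit-2, a yolk protein gene of the adult intestine, stood at 4045 to 13906 CPM although the label gives L4.

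Of the 8 genes, daf-18 was the one that rose in UM10. Its level was about 5-fold higher in UM10 than in N2 in both pairs of UM10 libraries, and every UM10 library lay above both N2 libraries. The PI3-kinase gene age-1 and the kinase gene akt-1 also lay higher in all 4 UM10 libraries than in both N2 libraries, by smaller factors that did not pass the test. The share of all genes that separated the strains in this way is not given here, so the separation alone does not set a gene apart. The receptor gene daf-2, the kinase genes pdk-1, akt-2 and sgk-1, and the transcription factor gene daf-16 had overlapping N2 and UM10 levels. Without N2 replicate 1, which stood apart, the daf-18 log2 fold change over both foods was 1.79 in place of 2.40. Each fit that left out 1 library had only 1 library in that group. For a call lost in such a fit, as that of daf-18 was, the smaller group and the library itself cannot be told apart. No pathway gene passed the test between the UM10 groups labelled csgA(-) and K12.

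**Figure D1:**
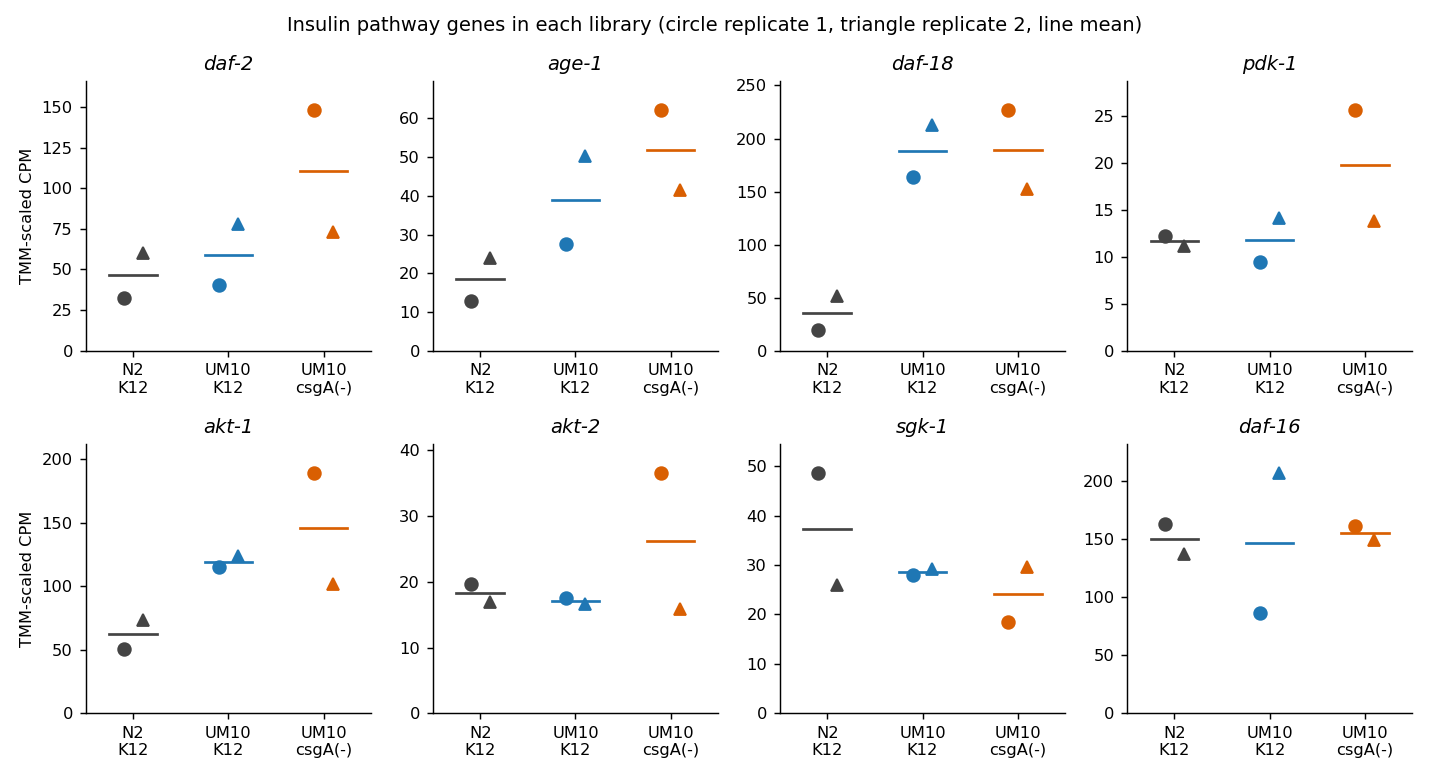
TMM-scaled CPM (vertical axes, each from 0) of the 8 pathway genes in the 6 libraries, grouped by strain and labelled food; circles are replicate 1, triangles replicate 2 and lines group means. The 4 UM10 libraries lie above both N2 libraries for daf-18, age-1 and akt-1, and UM10 labelled csgA(-) replicate 1 is the highest library for 6 of the 8 genes.

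In UM10 on K12 against N2, 1 of the 8 pathway genes was called at an adjusted p under 0.05 by the quasi-likelihood F test of edgeR, with p-values adjusted over all 15331 genes, where 2.75% of all genes tested were called. In UM10 labelled csgA(-) against N2, 1 of 8 was called beside 9.05% of all genes. In UM10 over both foods against N2, 1 of 8 was called beside 10.3% of all genes. The called gene was daf-18 each time, and a count of 1 among 8 genes is too small to set the pathway apart from these shares. The same shares stand beside the counts given for the gene lists below. These 3 comparisons share the same 2 N2 libraries. Between the foods, 0 of 8 were called, and so were 0% of all genes; no pathway gene had an unadjusted p under 0.05, against 1521 of all genes, and DESeq2 called 241 genes but no pathway gene. The median log2 fold change of the 8 was 0.18 in UM10 on K12 against N2, 0.99 in UM10 labelled csgA(-) against N2, 0.59 over both foods and 0.35 between the foods, beside medians of -0.09, 0.07, -0.04 and 0.00 over all genes.

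**Figure D2:**
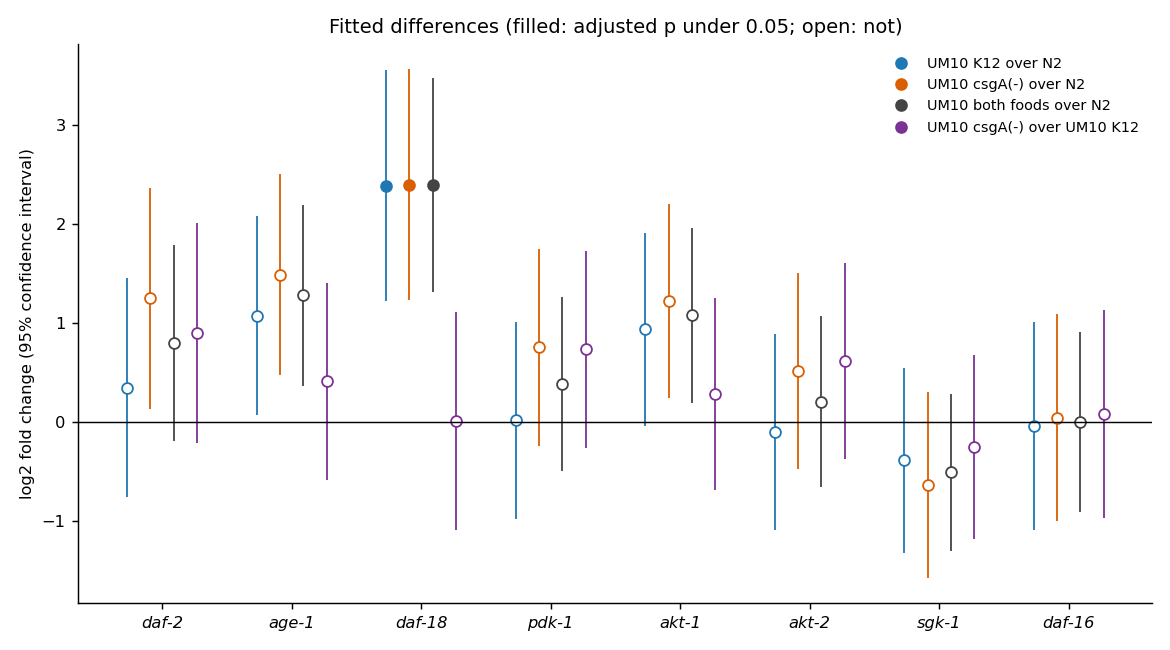
Fitted log2 fold changes (vertical axis) of the 8 pathway genes in the 4 comparisons, with 95% confidence intervals of the edgeR fit; filled points have an adjusted p under 0.05. The daf-18 points of the 3 comparisons with N2 lie at 2.39 to 2.40, and its point for the food comparison lies at 0.01.

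The receptor gene daf-2 lies on chromosome III (2994514 to 3040846, minus strand, WBcel235 annotation of Ensembl) and has 8296 exon bases, the longest of the 8. Its level was 32.4 and 60.3 CPM in N2, 40.6 and 77.7 CPM in UM10 on K12, and 148 and 73.0 CPM in UM10 labelled csgA(-). The replicates of each group differed by a factor of 1.86 to 2.03. UM10 on K12 replicate 1 lay inside the N2 range, and the other 3 UM10 libraries lay above it. The log2 fold change over both foods against N2 was 0.80 ± 0.45 (SE, 95% interval -0.19 to 1.79, adjusted p = 0.272). Between the foods it was 0.90 ± 0.51 (interval -0.21 to 2.01, adjusted p = 0.619), the largest food difference of the 8, and most of it came from 1 library: without UM10 labelled csgA(-) replicate 1 it was 0.15.

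The gene age-1, which encodes the catalytic subunit of the PI3-kinase, lies on chromosome II (11519328 to 11527054, minus strand). It stood at 12.9 and 23.95 CPM in N2, 27.6 and 50.3 CPM in UM10 on K12, and 62.2 and 41.5 CPM in UM10 labelled csgA(-). The groups of the 2 strains did not overlap, though the lowest UM10 library was only 1.15 times the highest N2 library. The log2 fold change over both foods against N2 was 1.283 ± 0.42 (interval 0.37 to 2.20), with an adjusted p of 0.0716. In UM10 labelled csgA(-) against N2 it was 1.49 ± 0.46 (adjusted p = 0.0647) and in UM10 on K12 against N2 it was 1.08 ± 0.46 (adjusted p = 0.234). The exons of age-1 share 192 bases with B0334.10 on the other strand, and the unstranded counts cannot tell reads of that stretch apart.

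The gene of the PI3-kinase adaptor subunit, aap-1, is not one of the 8 but works as the partner of AGE-1. Its level was 20.8 and 26.6 CPM in N2, 54.6 and 55.3 CPM in UM10 on K12, and 64.9 and 48.1 CPM in UM10 labelled csgA(-), with no overlap between the strains. It rose over both foods against N2, by 1.23 ± 0.34 on the log2 scale (adjusted p = 0.0442). It did not pass in UM10 on K12 alone (1.21, adjusted p = 0.119) or in UM10 labelled csgA(-) alone (1.25, adjusted p = 0.0604). The call over both foods was close to the threshold and was lost without N2 replicate 1 (0.99, adjusted p = 0.264), N2 replicate 2 (0.0713), UM10 on K12 replicate 1 (0.123) or replicate 2 (0.0972), and UM10 labelled csgA(-) replicate 1 (0.130), the values being adjusted p. It was also lost with all libraries kept under both other scalings, DESeq2 size factors (0.0514) and upper-quartile factors (0.0590).

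The gene daf-18 lies on chromosome IV (420011 to 425177, minus strand), has 1 annotated transcript of 3333 exon bases, and shares no bases with another annotated gene. Its raw counts were 276 and 1193 in N2, 4468 and 5766 in UM10 on K12, and 5524 and 3960 in UM10 labelled csgA(-). These correspond to 19.99 and 51.6 CPM, 164 and 212 CPM, and 227 and 152 CPM. The lowest UM10 library was 2.95 times the highest N2 library, the widest gap of the 8 genes, and the 2 UM10 groups overlapped. The group mean was 35.8 ± 22.3 CPM in N2 and 188 ± 34.4 CPM in UM10 on K12 (SD, n = 2 each). It was 189.5 ± 53.0 CPM in UM10 labelled csgA(-).

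The daf-18 level was 5.27-fold higher in UM10 over both foods than in N2, a log2 fold change of 2.40 ± 0.49 (interval 1.31 to 3.48, adjusted p = 0.0159). On K12 alone it was 2.39 ± 0.53 (adjusted p = 0.0401), and for the csgA(-) label alone it was 2.40 ± 0.53 (adjusted p = 0.0222). Over both foods, 2.76% of all genes tested had a larger log2 fold change. Between the foods the difference was 0.01 ± 0.50, with an interval of -1.09 to 1.11, which does not show equal levels. The size of the strain difference rested partly on N2 replicate 1, which had the lowest daf-18 level. Without it the log2 fold change was 1.79 over both foods (adjusted p = 0.109), 1.80 on K12 alone (0.214) and 1.77 for the csgA(-) label alone (0.112), so that no call remained. The call in UM10 on K12 was also lost without N2 replicate 2 (3.23, adjusted p = 0.0540), UM10 on K12 replicate 1 (2.57, 0.150) or replicate 2 (2.28, 0.113), and with upper-quartile scaling (0.0550), while the call in UM10 labelled csgA(-) was lost without replicate 1 of that group (1.97, 0.111).

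In UM10 over both foods against N2, 10.3% of all genes were called. The 10 tested genes nearest to daf-18, 5 on each side, had no called gene there. The closest, eri-1, lies 52 bases away and had a log2 fold change of 1.11 (adjusted p = 0.0705). The gene gpa-4 had 2.11 (adjusted p = 0.0747) and Y66H1A.5 had -1.40 (adjusted p = 0.0522), and the remaining 7 lay between -0.72 and 0.20. The daf-18 difference was thus larger than the fitted difference of each of these 10 genes.

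Among the kinases downstream of the PI3-kinase product, pdk-1 (chromosome X, 1321344 to 1327986, plus strand) encodes the kinase that activates AKT. It stood at 12.2 and 11.2 CPM in N2, 9.50 and 14.2 CPM in UM10 on K12, and 25.6 and 13.8 CPM in UM10 labelled csgA(-). The strains overlapped. Its log2 fold change over both foods was 0.39 ± 0.40 (adjusted p = 0.575), and in UM10 on K12 alone it was 0.02, a sign that turned with the scaling (-0.02 with DESeq2 size factors and -0.14 with upper-quartile factors).

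The gene akt-1 (chromosome V, 10248905 to 10252845, plus strand) encodes an AKT kinase that phosphorylates DAF-16. It stood at 50.8 and 73.5 CPM in N2, 115 and 124 CPM in UM10 on K12, and 189 and 102 CPM in UM10 labelled csgA(-). The lowest UM10 library was 1.38 times the highest N2 library. The log2 fold change over both foods was 1.08 ± 0.40 (interval 0.20 to 1.96, adjusted p = 0.105), and it did not pass in UM10 on K12 (0.94, adjusted p = 0.281) or UM10 labelled csgA(-) (1.23, adjusted p = 0.103).

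Its relative akt-2 (chromosome X, 14147700 to 14152070, plus strand) encodes the other AKT kinase. It stood at 19.7 and 16.9 CPM in N2, 17.5 and 16.7 CPM in UM10 on K12, and 36.6 and 15.9 CPM in UM10 labelled csgA(-). One library of UM10 labelled csgA(-) stood above the rest, which lay between 15.9 and 19.7 CPM, and without it the log2 fold change over both foods moved from 0.21 to -0.20. Within each library, akt-1 was 2.698 and 4.54 times akt-2 per kilobase of exon in N2, 6.86 and 7.76 times in UM10 on K12, and 5.40 and 6.70 times in UM10 labelled csgA(-). This ratio does not depend on library scaling, and it was higher in all 4 UM10 libraries than in both N2 libraries.

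The gene sgk-1 (chromosome X, 16254842 to 16262122, minus strand) encodes a kinase related to AKT that acts downstream of TOR complex 2. It was the only pathway gene with negative values in all 3 comparisons with N2, none of which passed the test. It stood at 48.7 and 26.0 CPM in N2, 27.97 and 29.3 CPM in UM10 on K12, and 18.5 and 29.6 CPM in UM10 labelled csgA(-). The highest library was N2 replicate 1, and the other N2 library lay below 3 of the 4 UM10 libraries. The log2 fold change over both foods was -0.51 ± 0.36 (interval -1.30 to 0.29, adjusted p = 0.394), and in UM10 on K12 alone it moved from -0.38 to 0.08 without N2 replicate 1.

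The gene daf-16 (chromosome I, 10750498 to 10776703, plus strand, 11 annotated transcripts) encodes the FOXO factor at the end of the pathway. It stood at 163 and 137 CPM in N2, 86.2 and 207 CPM in UM10 on K12, and 161 and 149 CPM in UM10 labelled csgA(-). The 2 UM10 libraries on K12 held both its lowest and its highest level, differing by a factor of 2.40. The log2 fold change over both foods was 0.01 ± 0.41 (interval -0.90 to 0.91, adjusted p = 0.994), an interval that does not show equal levels in the 2 strains. Gene counts do not separate its isoforms.

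Taken per kilobase of exon, which allows an approximate comparison between genes, the order of the pathway genes differed between the strains. The length is that of the exons of all annotated transcripts, 11 for daf-16 and 1 for daf-18. It can exceed the length of the transcripts present, and the level per kilobase is then too low. In N2, daf-16 led with 40.8 ± 4.93 CPM per kilobase (SD, n = 2), followed by akt-1 with 27.3 ± 7.04 and sgk-1 with 22.8 ± 9.81, which overlapped each other. The remaining 5, daf-18 with 10.7 ± 6.70, akt-2 with 7.70 ± 0.818, daf-2 with 5.59 ± 2.37, pdk-1 with 4.82 ± 0.283 and age-1 with 4.69 ± 1.99, overlapped as neighbours. In UM10 on K12, daf-18 led with 56.4 ± 10.3, beside akt-1 with 52.4 ± 2.67 and daf-16 with 39.8 ± 23.2, and these 3 overlapped. Below them came sgk-1 with 17.5 ± 0.553, and then age-1 with 9.91 ± 4.08, akt-2 with 7.18 ± 0.259, daf-2 with 7.12 ± 3.16 and pdk-1 with 4.89 ± 1.37. In UM10 labelled csgA(-), akt-1 with 63.8 ± 27.2 and daf-18 with 56.9 ± 15.9 overlapped and stood above daf-16 with 42.1 ± 2.35, while the other 5 had means of 8.14 to 14.7. So daf-18 was at rank 4 in N2 but at rank 1 (K12) or 2 (labelled csgA(-)) in UM10, and pdk-1 was the lowest or next to the lowest in all 3 groups.

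Ratios within a library, which need no scaling between libraries, set daf-18 against age-1, whose product it opposes, and against daf-16. The phosphatase gene daf-18 stood at 1.83 and 2.54 times the kinase gene age-1 per kilobase in N2, 6.99 and 4.98 times in UM10 on K12, and 4.30 and 4.31 times in UM10 labelled csgA(-). All 4 UM10 ratios were above both N2 ratios. Against daf-16 it stood at 0.135 and 0.415 in N2, 2.1 and 1.13 in UM10 on K12, and 1.55 and 1.13 in UM10 labelled csgA(-). In N2 the level per kilobase of all annotated exons was thus higher for daf-16, and in every UM10 library for daf-18. With UM10 ratios as low as 1.13 and 11 annotated daf-16 transcripts, this order in UM10 depends on the length used. The share of daf-18 in the summed level of the 8 genes per kilobase was 4.88% and 12.3% in N2 and 25.3% to 30.1% in the 4 UM10 libraries, while the share of daf-16 was 36.1% and 29.6% in N2 and 14.3% to 24.8% in UM10. The ratio of akt-1 to sgk-1 was 0.750 and 2.03 in N2 and 2.95, 3.03, 7.33 and 2.47 in UM10, where 7.33 belonged to UM10 labelled csgA(-) replicate 1.

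**Figure D3:**
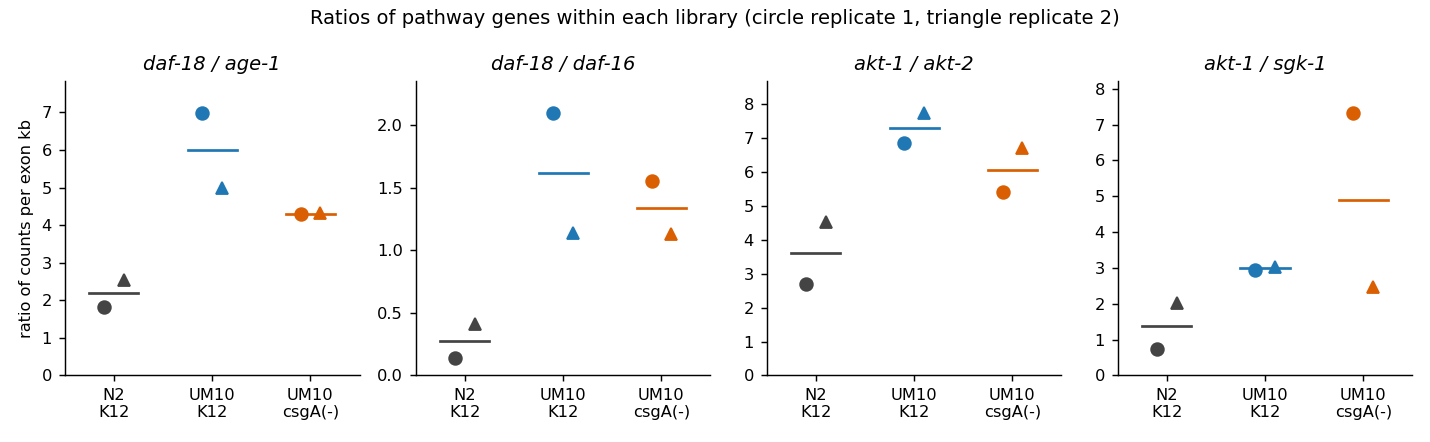
Ratios of counts per exon kilobase between pairs of pathway genes (vertical axes from 0) in the 6 libraries; circles are replicate 1, triangles replicate 2 and lines group means. The daf-18 to age-1 ratio is 1.83 and 2.54 in N2 and 4.30 to 6.99 in UM10.

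Much of the spread of the pathway genes followed single libraries. UM10 labelled csgA(-) replicate 1 had the highest level of 6 genes, daf-2, age-1, daf-18, pdk-1, akt-1 and akt-2, and the lowest of sgk-1. N2 replicate 1 had the lowest level of 4, daf-2, age-1, daf-18 and akt-1, and the highest of sgk-1. After each gene was centred on its own mean of log2 CPM over the 6 libraries, the root mean square difference between 2 genes gave their likeness. The closest pairs were pdk-1 and akt-2 (0.243), age-1 and akt-1 (0.297) and daf-2 and age-1 (0.330), and the farthest was daf-18 and sgk-1 (1.60).

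By the same measure, the 2 genes most like each pathway gene were taken from the 11766 genes whose counts averaged 50 or more. For daf-18 they were flh-1 (0.0817) and Y39B6A.10 (0.0876), for age-1 pif-1 (0.0605) and tpxl-1 (0.0612), and for daf-2 xpo-1 (0.112) and rabx-5 (0.116). For akt-1 they were lmbr-1 (0.105) and cec-4 (0.108), for akt-2 C52E2.4 (0.119) and C39D10.11 (0.132), and for pdk-1 fkb-6 (0.0555) and nas-9 (0.0918). For sgk-1 they were K10G9.2 (0.0438) and spig-10 (0.0491), and for daf-16 ptr-5 (0.0873) and F22E12.1 (0.100). The values describe 6 libraries that differ in composition as well as in strain.

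Oocyte markers were higher in UM10, as daf-18 was. The summed level of 6 oocyte markers was 470 and 769 CPM in N2, 1746 and 3218 CPM in UM10 on K12, and 3323 and 2293 CPM in UM10 labelled csgA(-), and no oocyte marker was at 0 in every library. Of these 6, 5 were called higher over both foods (puf-5, oma-2, rme-2, cbd-1 and oma-1), 5 in UM10 labelled csgA(-) and 3 in UM10 on K12 (puf-5, oma-2 and rme-2). The shares of all genes called were 10.3%, 9.05% and 2.75% in the same order. The RNA-binding protein genes puf-5 and oma-2, which act in oocytes, had log2 fold changes of 2.69 (adjusted p = 0.0105) and 2.59 (adjusted p = 0.0119) over both foods. Without N2 replicate 1 none of the 6 was called, and the list's median log2 fold change over both foods was 1.74. Over both foods, oma-1 also lost its call without either UM10 library on K12 (adjusted p = 0.0587 and 0.0621), and cbd-1 without either of them (0.0693 and 0.102) or UM10 labelled csgA(-) replicate 1 (0.0767). Each of the 3 calls in UM10 on K12 was lost without any 1 of the 4 libraries compared (0.0540 to 0.245), and that of rme-2 also with both other scalings (0.0512 and 0.0669). All 5 calls in UM10 labelled csgA(-) were lost without replicate 1 of that group (0.0844 to 0.194). There oma-1 and cbd-1 were also lost with only the compared groups in the fit (0.0515 and 0.0555) or without either UM10 library on K12 (0.0510 to 0.0591), and cbd-1 without UM10 labelled csgA(-) replicate 2 (0.0503). The oocyte marker oma-2 was also the marker closest to daf-18, with a root mean square difference of 0.139, followed by oma-1 (0.145), puf-5 (0.155) and rme-2 (0.203). The oocyte markers cbd-1 (0.359) and perm-4 (0.728) were farther from daf-18 than the germline marker glp-1 (0.312). Germline markers ranged from 0.312 to 1.095 (glh-1), so the 2 marker lists overlapped in their likeness to daf-18.

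The 6 germline markers summed to 343 and 999 CPM in N2 and 886 to 1660 CPM in UM10, so the strains overlapped, and none was called by edgeR in a comparison with N2, while 4 of 6 had an unadjusted p under 0.05 over both foods and DESeq2 called 2 higher. As a share of the summed oocyte marker counts, daf-18 was 4.25% and 6.70% in N2 and 6.60% to 9.38% in UM10, a ratio of means of 1.34. As a share of the germline marker counts it was 5.84% and 5.16% in N2 and 11.3% to 18.5% in UM10, a ratio of 2.60 with no overlap. For age-1, akt-1 and aap-1 the ratios of means were 1.07, 0.899 and 0.987, but their N2 replicates differed. The N2 shares were 3.76% and 2.40% for age-1, 14.8% and 7.36% for akt-1, and 6.07% and 2.66% for aap-1. Over the 6 libraries the highest share was 1.57, 2.02 and 2.31 times the lowest, in the same order. The strains overlapped for each gene, and whether these genes followed the germline markers was not tested. As a share of the oocyte marker counts, the ratios of means for age-1, akt-1 and aap-1 were 0.583, 0.505 and 0.565. By that share, all 4 UM10 libraries lay below both N2 libraries for each of these genes. The part of these markers in the daf-18, age-1, akt-1 and aap-1 differences was not tested.

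Markers of intestine, hypodermis and body wall muscle had lower sums in all 4 UM10 libraries than in both N2 libraries. The summed intestinal markers were at 7893 and 2986 CPM in N2 and at 899 to 2218 CPM in UM10, with act-5, an intestinal actin gene, called lower over both foods (-2.79, adjusted p = 0.0143), a call lost without N2 replicate 1 (0.102) and without either UM10 library on K12 (0.0774 and 0.0573, adjusted p). The hypodermal markers summed to 5192 and 4530 CPM in N2 and 1094 to 2104 CPM in UM10, with the cuticle collagen genes dpy-7 and sqt-3 called lower over both foods. Of the 5 hypodermal markers, 4 were negative over both foods and 1, elt-1, was positive (0.17). The level of elt-1 was 7.97 and 12.5 CPM in N2 and 10.4 to 12.3 CPM in UM10, so the lower sum was not shared by all 5. The dpy-7 call was lost in 4 of the 6 fits that left out 1 library, and the sqt-3 call in 5, N2 replicate 1 being among them for both. The 5 body wall muscle markers summed to 18006 and 13075 CPM in N2, 7353 and 7384 CPM in UM10 on K12, and 12140 and 12750 CPM in UM10 labelled csgA(-). None of these 5 was called by edgeR, 1 had an unadjusted p under 0.05 over both foods and 1 between the foods, and DESeq2 called 1 lower and 1 higher in these comparisons. The median log2 fold change of the muscle markers was -1.05 in UM10 on K12 against N2 and 0.87 between the foods. In UM10 labelled csgA(-) against N2 it was -0.04, with 2 markers positive and 3 negative. The lower muscle sum there was thus not shared by all 5, since a sum weighs the most abundant genes most. The neuronal markers summed to 395 to 548 CPM in N2 and 362 to 641 CPM in UM10, and none was called or had an unadjusted p under 0.05 in any comparison. Their part in the levels of the pathway genes was not tested.

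**Figure D4:**
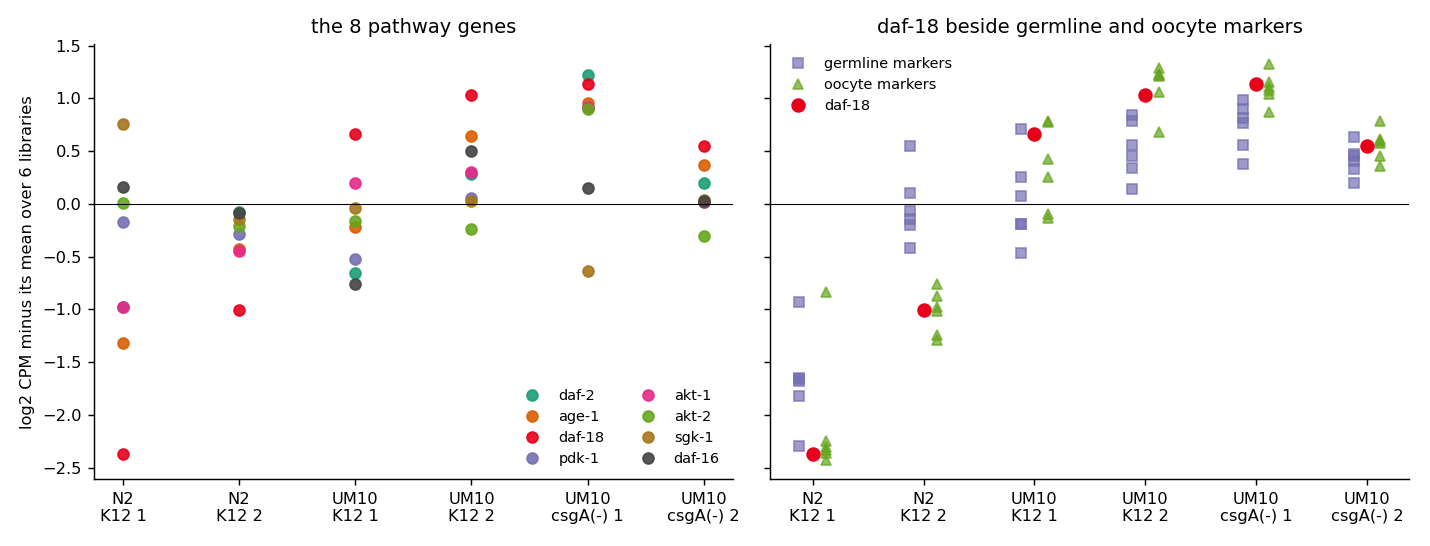
Log2 CPM minus the gene's own mean over the 6 libraries (vertical axis), for the 8 pathway genes (left) and for daf-18 beside the germline and oocyte markers (right). N2 replicate 1 is the lowest library for daf-18 and for the summed oocyte markers, and the daf-18 points lie within or near the oocyte points in all 6 libraries.

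Upstream of the receptor, the insulin-like ligand genes had low levels and none of the 6 tested was called in any comparison by edgeR or DESeq2 or had an unadjusted p under 0.05. The agonist daf-28 varied between replicates, with 0.942 and 11.1 CPM in N2, 0.660 and 5.08 CPM in UM10 on K12, and 0.534 and 5.22 CPM in UM10 labelled csgA(-), so that replicate 2 was the higher one in every group. The ligand gene ins-18 stood at 15.4 and 4.54 CPM in N2, 8.84 and 10.02 CPM in UM10 on K12, and 4.07 and 7.22 CPM in UM10 labelled csgA(-). The median log2 fold change of the 6 over both foods was -0.48.

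Beside the core, the other 3 genes of the adaptor and phosphatase list (ist-1, shc-1 and pptr-1) were not called in any comparison and had no unadjusted p under 0.05. The TOR complex and S6 kinase list, to which rict-1 and sinh-1 of the complex upstream of SGK-1 belong, had 0 of 6 called in any comparison by edgeR or DESeq2 and a median of 0.57 over both foods, where 2 had an unadjusted p under 0.05. Of all genes, edgeR called 0% to 10.3% in the 4 comparisons, and of 16 DAF-16 regulators and partners it called 0 in any. Over both foods their median was 0.34, 4 had an unadjusted p under 0.05, and DESeq2 called 1 higher and 1 lower. The most abundant of these, the 14-3-3 protein genes ftt-2 and par-5, whose products bind phosphorylated DAF-16, had log2 fold changes of -1.13 (adjusted p = 0.136) and -0.44 (adjusted p = 0.572) over both foods.

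Genes known as class I targets, which DAF-16 activates when insulin signalling is low, moved in both directions. Of 14 listed, 13 were tested, and over both foods 4 were called higher, 1 lower and 8 not at all, with a median of -0.07. Of all genes tested, 10.3% were called in that comparison. The metallothionein gene mtl-1 stood at 0.797 and 0.259 CPM in N2, 13.2 and 1.55 CPM in UM10 on K12, and 76.7 and 82.4 CPM in UM10 labelled csgA(-), and its log2 fold change over both foods was 5.60 (adjusted p = 0.00734). The small heat shock protein gene sip-1 stood at 99.0 and 120 CPM in N2 and 718 to 1092 CPM in UM10 (3.00, adjusted p = 0.00734). The small heat shock protein gene hsp-12.6 had 3.59 (adjusted p = 0.0110) and the linker histone gene hil-1 had 1.85 (adjusted p = 0.0364). The catalase gene ctl-1 was lower, with 206 and 151 counts in N2 and 0 or 1 count in each UM10 library. Reads that map to more than 1 place stood on a summary line of their own (2.57% to 4.05% of reads), apart from the gene counts. The gene ctl-1 has close relatives beside it in the genome, and its reads were counted in the same way in N2 and UM10. Its relative ctl-2 was not called. The cause of the ctl-1 difference was not tested. The superoxide dismutase gene sod-3, a widely used DAF-16 reporter, had 1.73 (adjusted p = 0.129). The part of the oocyte and other marker differences in the levels of the class I targets was not tested.

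Without N2 replicate 1, none of the 13 class I targets was called higher over both foods and ctl-1 alone was called lower. The adjusted p was then 0.0573 for sip-1, 0.0895 for mtl-1, 0.102 for hsp-12.6 and 0.148 for hil-1, with log2 fold changes of 2.78, 6.46, 3.47 and 2.16. The hil-1 call was also lost without N2 replicate 2 (0.130) or either UM10 library on K12 (0.115 and 0.0600), and with upper-quartile factors (0.0509). In UM10 on K12 against N2, mtl-1 and sip-1 were called higher and ctl-1 lower, and in UM10 labelled csgA(-) against N2 mtl-1, sip-1 and hsp-12.6 were called higher and ctl-1 lower. Without N2 replicate 1, none of these higher calls remained, and the ctl-1 call on K12 was lost (0.189), as it was without UM10 on K12 replicate 1 (0.104). On K12 the mtl-1 call was also lost without N2 replicate 2 (0.171) or UM10 on K12 replicate 1 (1.62, 0.450) and with both other scalings (0.0535 and 0.0726). The sip-1 call was also lost on K12 without any 1 of the other 3 libraries compared (0.0504 to 0.137), and in UM10 labelled csgA(-) without replicate 1 of that group (0.0539).

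Class II targets, which are lower when insulin signalling is low, had 11 genes listed and 9 tested, of which ins-7 is also on the ligand list. Over both foods, dod-22 was called higher (3.04, adjusted p = 0.0173) and dod-17 lower (-1.90, adjusted p = 0.0204), and the median was 0.60. These calls stood beside 10.3% of all genes called. The gene dod-22 stood at 2.17 and 1.69 CPM in N2, 43.3 and 8.88 CPM in UM10 on K12, and 8.67 and 10.6 CPM in UM10 labelled csgA(-). The gene dod-17 stood at 27.4 and 15.1 CPM in N2, 17.01 and 17.1 CPM in UM10 on K12, and 1.11 and 2.65 CPM in UM10 labelled csgA(-). In UM10 labelled csgA(-) against N2, dod-17 and dod-19 were called lower. In UM10 on K12 against N2, dod-22 was called higher. Without N2 replicate 1, none of the 9 was called in any comparison, and dod-22 over both foods was also lost without N2 replicate 2 (0.0858). The dod-17 call over both foods was also lost without either UM10 library on K12 (0.0693 and 0.0572), the dod-22 call on K12 without N2 replicate 2 (0.0851) or UM10 on K12 replicate 1 (0.206), and the dod-19 call without either UM10 library on K12 (0.0559 and 0.0532) or UM10 labelled csgA(-) replicate 1 (0.245). Between the foods, the median of the 9 was -1.40 and that of the 13 class I targets 0.18, with no gene called by edgeR. Of the 9, 5 had an unadjusted p under 0.05 there, as did 3 of the 13, against 1521 of all 15331 genes. The log2 fold change between the foods was -3.18 for dod-17 (adjusted p = 0.128) and 3.43 for mtl-1 (adjusted p = 0.174).

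**Figure D5:**
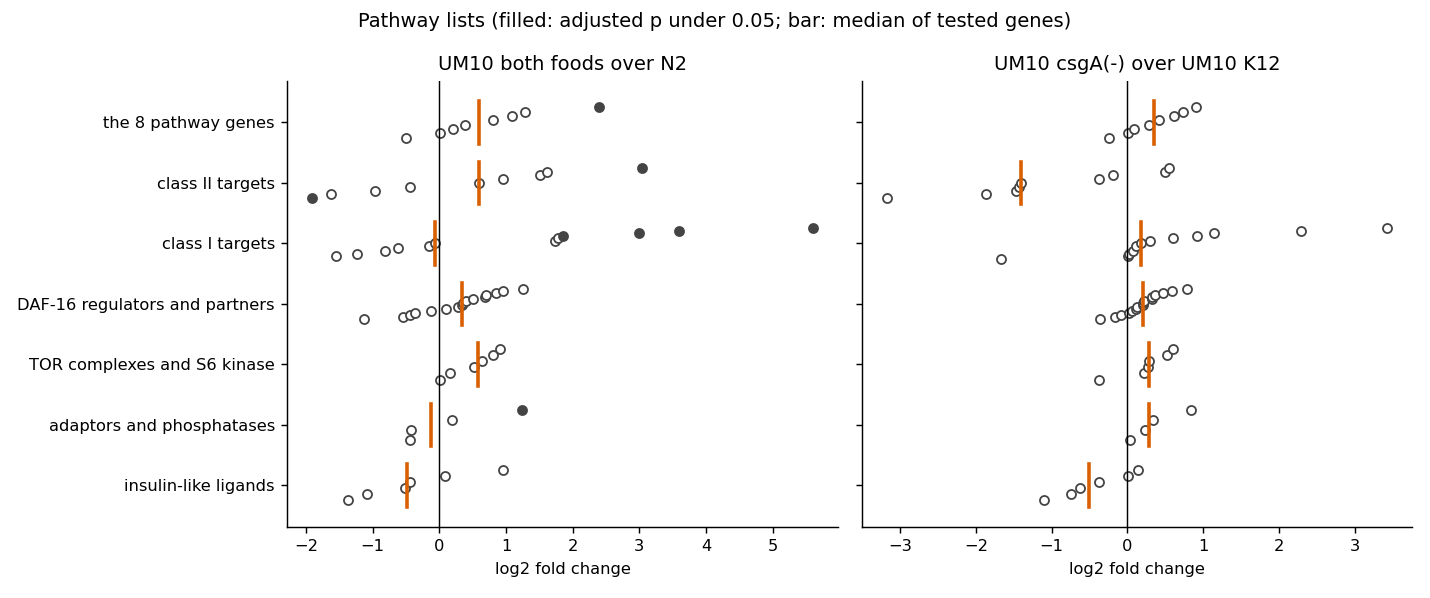
Fitted log2 fold changes (horizontal axis) of the genes of each pathway list and of the 8 pathway genes in UM10 over both foods against N2 (left) and between the foods (right); filled points have an adjusted p under 0.05 and bars mark the median of the tested genes. The called points on the left are daf-18, aap-1, 4 class I targets and 2 class II targets, and ctl-1 is left out because its UM10 counts are near 0.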

How the data were processed

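Per the labels, poly-A RNA of whole animals was sequenced. The authors deposited 1 table of raw read counts per gene and library, with no normalization. The submitters' processing notes name STAR 2.7.5, DESeq2 1.28.1 and WBcel235, with no role; the annotation they used is not given in the sources used here. The unstranded counts were used, as the first strand held 48.4% to 49.7% of stranded counts. The 4 summary lines, 7.85% to 8.72% of reads, stayed out of library sizes. Genes were kept by filterByExpr (edgeR 4.0.16, R 4.3.3; minimum 10 counts), scaled by TMM and tested with edgeR's quasi-likelihood F test on all 6 libraries with 1 term per group and Benjamini-Hochberg adjustment at 0.05. The common dispersion was 0.152 with 3 residual degrees of freedom. The fit was tested on simulated counts. Groups follow the sample titles. Named genes were the 8 members, called list genes, or otherwise the most abundant list genes, and for each member the 2 most alike. The other genes named from the lists (sod-3, ctl-2, rict-1, sinh-1, ist-1, shc-1, perm-4, glp-1) were chosen after their values were seen. Of 98 listed genes, 95 matched 1 symbol. Members and lists were chosen with earlier results of these data known. Alternatives included other scalings, no filter, DESeq2 1.42.0, a replicate term and single libraries left out. Promoter and protein sequences were not used here.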

Additional observations from a re-analysis of the deposited data

How the results depend on the processing

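With all libraries kept, the number of genes called moved by over 1.5 times as follows. In UM10 on K12 against N2 (421), it was 276 with upper-quartile factors, 1333 without the low-count filter and 1167 with DESeq2. In UM10 labelled csgA(-) against N2 (1388), it was 2705 without the filter and 2565 with DESeq2. Over both foods (1582), it was 2831 and 2661. Between the foods (0), it was 470 and 241. With 1 library left out, the counts ranged from 2 to 579, 157 to 1544, 49 to 1774 and 0 to 78 in the same order.

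The number of pathway genes called (1 in each comparison with N2) was 0 in UM10 on K12 with upper-quartile factors, and 2 in UM10 labelled csgA(-) and over both foods without the filter and with DESeq2, the 2nd gene being age-1. It ranged from 0 to 1 with 1 library left out. A replicate block gave 845, 2434, 2418 and 165 genes called in the same order, and 2 pathway genes in UM10 labelled csgA(-) and over both foods, again with age-1 (adjusted p = 0.0227 and 0.0304). The deviations of same-numbered libraries correlated at 0.34 between N2 and UM10 on K12. The values were -0.06 between N2 and UM10 labelled csgA(-), and 0.10 between the UM10 groups. Whether same-numbered libraries shared a batch was not tested.

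Signs turned for differences near 0. For pdk-1 in UM10 on K12 they became -0.0188 (DESeq2 size factors), -0.0186 (DESeq2) and -0.14 (upper-quartile), for daf-18 between the foods -0.0351 (size factors, DESeq2 and only the groups compared), for daf-16 in UM10 labelled csgA(-) against N2 -0.0432 (size factors and DESeq2), -0.11 (upper-quartile) and -0.0265 (only the groups compared), and for daf-16 over both foods -0.0647 (size factors and DESeq2), -0.15 (upper-quartile) and -0.0341 (replicate block). With 1 library left out, UM10 on K12 against N2 ranged over -0.11 to 0.86 for daf-2, -0.22 to 0.27 for pdk-1, -0.21 to 0.0149 for akt-2, -0.77 to 0.0842 for sgk-1 and -0.72 to 0.45 for daf-16. Between the foods the ranges were -0.0565 to 0.77 for age-1, -0.39 to 0.62 for akt-1, -0.27 to 1.05 for akt-2, -0.47 to 0.70 for daf-16 and -0.46 to 0.23 for daf-18. In UM10 labelled csgA(-) against N2 they were -0.34 to 0.99 for akt-2 and -0.14 to 0.0904 for daf-16, and over both foods -0.20 to 0.46 and -0.37 to 0.22. The cause was not tested. Upper-quartile factors moved the median of all genes in UM10 on K12 from -0.09 to -0.23, so changes there are relative to that shift.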
